A study of Homo sapiens with 6 samples.

Results

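The heat shock proteins and chaperonins are the folding machinery of the cell, and their mRNAs were followed here in RNA immunoprecipitation and sequencing (RIP-Seq) of the RNA-binding protein CELF1 in melanoma cells. Genes were chosen by symbol in the GRCh37 annotation, namely protein-coding genes starting HSPA, HSPB, HSPD, HSPE, HSPH, HSP90, DNAJA, DNAJB or DNAJC, together with TCP1 and CCT2 to CCT8 with CCT6A. The rule gave 83 genes, of which 2 are read-through genes that share the exons of a neighbor and were not counted apart, leaving 81 of 19483 protein-coding genes. The rule itself used no measured value, but the set was chosen with earlier results of these data known.

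CELF1, also called CUGBP1, was pulled down with an anti-CUGBP1 antibody from lysates of SK-Mel-103 and UACC-62, both established human melanoma cell lines grown without further treatment, and the recovered RNA (IP) was sequenced beside RNA of the lysate (input). There were 3 IP samples, each paired with its own input: replicate 1 of SK-Mel-103, which thus had n = 1, and replicates 1 and 3 of UACC-62, described as biological duplicates. No pulldown with a control antibody was analysed here. The deposited lists hold 20 bp bins of the genome that had passed a peak caller with the input as covariate, so that every value below rests on listed bins alone.

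CELF1 binds GU-rich elements, mostly in 3′ untranslated regions (3′ UTRs), and is known for roles in mRNA decay, translation and splicing. Among the chaperones, HSP70 proteins hold unfolded stretches of client proteins, and J proteins (DNAJ) bring the clients and trigger the ATPase of HSP70. HSP110 proteins exchange its nucleotide, and HSP90 finishes kinases and receptors, with mutant BRAF as a well-known client in melanoma. The authors list UACC-62 as mutant in BRAF, but SK-Mel-103 as wild type in BRAF and mutant in NRAS. The TRiC ring, built from TCP1 and the CCT subunits, folds actin and tubulin, whereas HSPD1 and HSPE1 form the chaperonin of mitochondria.

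From here on, 3 values in a row follow the same order, SK-Mel-103 first and then the UACC-62 pairs 1 and 3. Depth in the lists came to 10958459, 11333805 and 14436573 IP reads, beside 8453517, 10161917 and 8900292 input reads that were read back from the covariate. The melanocyte lineage markers (7 genes) summed to 106 CPM (reads scaled to the listed input reads of the sample) in SK-Mel-103 and to 1547 and 1346 CPM in UACC-62, while the keratinocyte and fibroblast markers had no input read in any listed bin and the leukocyte markers had 3 reads, in UACC-62 replicate 1. Of the lineage markers PMEL had no input read in a listed bin of either line. TYR, DCT and S100B had none in the listed bins of SK-Mel-103, where SOX10 made up 102 CPM of the sum. Chaperone mRNAs took up 2.10%, 2.75% and 2.47% of the input reads in the 3 pairs and 0.993%, 0.740% and 0.784% of the IP reads. The share was thus lower in the IP each time.

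Chaperone mRNAs with high IP over input and those with low IP over input can be seen side by side in their 3′ UTRs. The bins shown first are those of the 4 chaperone genes that were both higher in the IP (below) and had a common peak, that is, the same bin holding over 30 IP reads (p-value under 0.05) in all 3 samples. For each gene the common 3′ UTR bin with the highest IP over input in its lowest sample was taken, written 5′ to 3′ on the transcript strand with TGT (UGU in the RNA, the core of a GU-rich element) in capitals.
DNAJB1: gtcacactctttacatttct
DNAJC5: tctccactcagtgacgtggg
HSPA13: accattttgcagttTGTttt
HSPA1B: TGTaagggTGTttcgttccc
These bins lie at chr19:14626021-14626040 (minus strand), chr20:62565941-62565960 (plus), chr21:15743441-15743460 (minus) and chr6:31797861-31797880 (plus) of GRCh37. The DNAJB1 bin held 63, 60 and 110 IP reads against 2, 3 and 3 input reads, a log2 IP over input of 4.17, 4.32 and 4.42. The HSPA1B bin, with 2 TGT, reached 1.03, 1.61 and 1.50 on the same scale. Best bins were found in the same way for 18 genes that were lower in the IP over the whole gene, and 11 of these 18 bins held TGT, as did 2 of the 4 bins above. From the 18, 5 bins with TGT and 2 without (HSP90AA1 and CCT2) are shown, picked after their letters and values were seen.
HSP90AB1: TGTatTGTggtttattttat
HSPA8: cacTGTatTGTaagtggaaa
CCT5: ttcactTGTtcaaagcTGTg
HSPH1: aTGTcgatccTGTTGTaact
TCP1: TGTttgaaccaaccatagtt
HSP90AA1: cagatgagttaaaagatatt
CCT2: aaaaagttcatttctcatac
They lie at chr6:44221541-44221560 (plus), chr11:122928241-122928260 (minus), chr5:10265041-10265060 (plus), chr13:31710821-31710840 (minus), chr6:160200221-160200240 (minus), chr14:102547381-102547400 (minus) and chr12:69995301-69995320 (plus). In the HSP90AB1 bin the log2 IP over input was 2.15, 1.38 and 1.22, above 0 in all 3 samples although the gene as a whole was lower. In the TCP1 bin it was -1.52, -1.86 and -2.23. Over all common 3′ UTR bins, TGT was present in 48.0% of the 202 bins of chaperone genes and in 40.5% of the 24650 bins of all genes. Within the chaperone genes it was present in 39.1% of the 64 bins from mRNAs higher in the IP and in 51.7% of the 118 bins from mRNAs lower in the IP. Of these 64 bins, 43 came from DNAJB1 alone, with TGT in 32.6% of them. Over all genes the order was the reverse, with 41.0% of bins from higher mRNAs and 38.6% of bins from lower ones. The presence of these 3 letters is a description of the bins, and neighboring bins share their surroundings.

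For each gene, IP and input reads were summed over the listed bins of its exons and compared across the 3 pairs with edgeR (quasi-likelihood test over all genes, Benjamini-Hochberg adjusted p under 0.05). A negative log2 IP over input means fewer IP reads per input read than in the typical gene of the table, not an absence from the IP. Of the 81 chaperone genes 61 could be tested, and 20 had too few reads. Among the 61, 12 were higher in the IP (19.7%), beside 30.8% of the 9841 genes tested, and 33 were lower (54.1%), beside 30%. The remaining 16 were not called. The median log2 IP over input was -0.56 for the chaperone genes and 0.06 for all genes, and in the single samples it was -0.41, -0.69 and -0.61 for the chaperone genes. Over bins with more than 30 IP reads alone, where 29 chaperone genes could be tested, their median was -1.66. A fit that did not pair each IP with its input called 1 chaperone gene higher (DNAJB1; 1.64%, beside 3.16% of all genes) and 14 lower (23.0%, beside 2.71%). The 14 were the TRiC and mitochondrial chaperonin genes, HSPA4, HSPA8, HSPA9 and DNAJC7. The plot of the 61 genes by role shows that the groups of chaperones did not move alike.

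**Figure D1:**
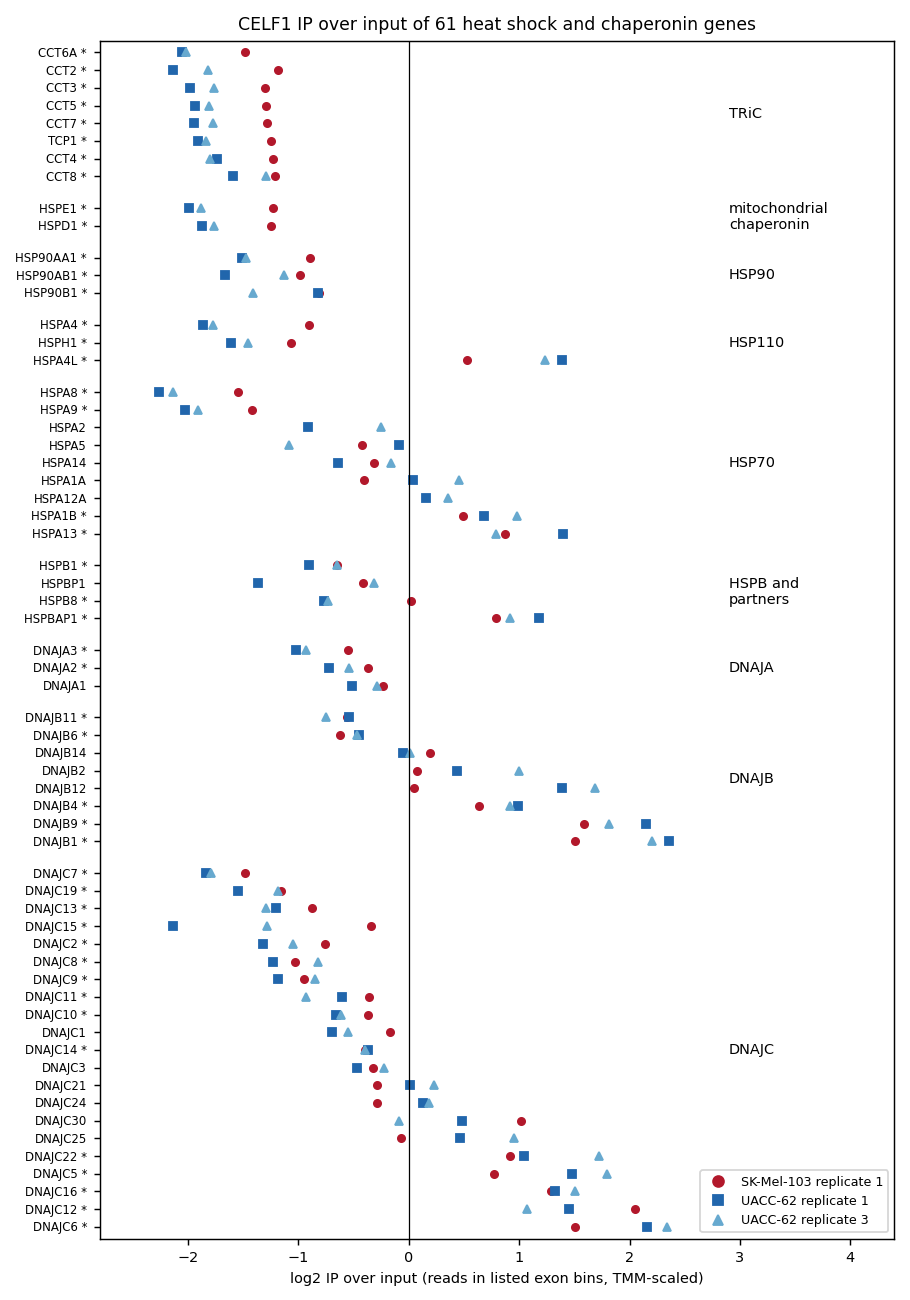
Each row is a chaperone gene and each point is the log2 IP over input of a sample (x axis, reads in listed exon bins, TMM-scaled), grouped by role, with an asterisk where edgeR gave an adjusted p under 0.05 across the 3 pairs. All 24 points of the 8 TRiC genes lie below 0, whereas DNAJB1, DNAJB9 and DNAJC6 lie above 1.5 in every sample. HSPA2 and HSPA12A have no point for SK-Mel-103, where no bin was listed.

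All 8 TRiC subunits were lower in the IP, with edgeR log2 values between -1.85 (CCT6A) and -1.37 (CCT8). CCT6A held 1945, 2174 and 3088 IP reads against 4591, 11791 and 9692 input reads, a log2 IP over input of -1.48, -2.05 and -2.02 (edgeR log2 -1.85, SE 0.20, adjusted p = 5.81e-05). CCT2 had -1.19, -2.13 and -1.82 and TCP1 had -1.25, -1.91 and -1.83. In each of the 8 genes the SK-Mel-103 value was the nearest to 0, and no value of any subunit reached 0.

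The mitochondrial chaperonin was close to TRiC in its values. HSPD1, the ring protein, gave -1.24, -1.88 and -1.77 (edgeR log2 -1.63, SE 0.21, adjusted p = 0.000142). HSPE1, its lid, gave -1.23, -1.99 and -1.89 (edgeR log2 -1.70, SE 0.19, adjusted p = 7.39e-05).

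The 3 HSP90 genes were lower as well. HSP90AA1, the stress-inducible cytosolic form, held 21363, 7347 and 13665 IP reads against 33524, 27357 and 29268 input reads, and gave log2 IP over input of -0.89, -1.51 and -1.47. HSP90AB1, the constitutive cytosolic form, gave -0.99, -1.67 and -1.13, and HSP90B1, the form of the endoplasmic reticulum (ER), gave -0.81, -0.82 and -1.41. The 3 genes had edgeR log2 values of -1.29, -1.26 and -1.02, with adjusted p of 0.000796, 0.000647 and 0.00176.

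The HSP70 group held values at both ends. HSPA8, the constitutive HSP70 of the cytosol and the chaperone mRNA richest in input per length, had 14698, 12812 and 14827 IP reads against 36374, 80470 and 50355 input reads, a log2 IP over input of -1.55, -2.27 and -2.14 (edgeR log2 -1.99, SE 0.24, adjusted p = 0.000111). HSPA9, the mitochondrial HSP70, was lower too, at -1.42, -2.03 and -1.91. In contrast, HSPA13, a divergent HSP70 of microsomes, was higher in the IP in all 3 samples, at 0.87, 1.40 and 0.79 (edgeR log2 1.02, SE 0.18, adjusted p = 0.000839). The stress-inducible HSPA1B gave 0.49, 0.68 and 0.98 (edgeR log2 0.71, SE 0.16, adjusted p = 0.0037; 0.57 and 0.0743 without UACC-62 replicate 3), while its near-identical copy HSPA1A gave -0.41, 0.04 and 0.46 and was not called (edgeR log2 0.02, adjusted p = 0.93), except over bins listed in all 3 samples (0.50, adjusted p = 0.0194). As reads with up to 20 hits were kept in the alignment, reads of these copies cannot be cleanly told apart, and this applies also to HSPA8, HSPD1 and the HSP90 genes with their processed pseudogenes. HSPA5, the HSP70 of the ER, gave -0.43, -0.09 and -1.08 and missed the threshold (adjusted p = 0.0502), with UACC-62 replicates that lay farther apart from each other than from SK-Mel-103. It was lower by the test without UACC-62 replicate 1 (edgeR log2 -0.76, adjusted p = 0.0136) or without SK-Mel-103 (-0.65, adjusted p = 0.000591). In this group there were 2 higher, 2 lower and 5 not called of 9 tested.

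The HSP110 proteins were split. HSPA4 gave -0.91, -1.87 and -1.77 (edgeR log2 -1.52, adjusted p = 0.000306) and HSPH1 gave -1.07, -1.61 and -1.45 (edgeR log2 -1.38, adjusted p = 0.000139). HSPA4L, named after its values were seen, lay on the other side of 0 at 0.53, 1.38 and 1.24 (edgeR log2 1.0, adjusted p = 0.00487). Of the small heat shock proteins and their partners, HSPB1 (HSP27) gave -0.65, -0.90 and -0.65 (edgeR log2 -0.75, adjusted p = 0.00409; -0.66 and 0.076 without UACC-62 replicate 1). The 4 tested genes of that prefix gave 1 higher (HSPBAP1, a partner of HSPB1), 2 lower (HSPB1 and HSPB8) and 1 not called.

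Of the 32 J proteins tested, 8 were higher in the IP (25.0%, beside 30.8% of all genes) and 14 were lower (43.8%, beside 30%). DNAJB1, the stress-inducible J partner of HSP70, had the highest edgeR log2 of all 61. It held 5909, 9237 and 9056 IP reads against 1752, 2355 and 1519 input reads, a log2 IP over input of 1.51, 2.36 and 2.20 (edgeR log2 2.02, SE 0.22, adjusted p = 5.85e-05), or 4.07-fold. DNAJB9, a J protein of the ER, held 438, 640 and 969 IP reads against 122, 187 and 212 input reads and gave 1.59, 2.15 and 1.82 (edgeR log2 1.86, SE 0.17, adjusted p = 3.31e-05). In both genes every sample was more than 2-fold above its input.

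Among the DNAJC genes, DNAJC5, the cysteine string protein of secretory vesicles, gave 0.77, 1.48 and 1.80 (edgeR log2 1.35, SE 0.22, adjusted p = 0.000517). The other higher genes, named after their values were seen, were DNAJC6 (auxilin, which uncoats clathrin vesicles) at an edgeR log2 of 1.92, DNAJC12 at 1.60, DNAJC16 at 1.40 and DNAJC22 at 1.23, with DNAJB4 at 0.85. DNAJC12 and DNAJC22 rested on few reads, with 20 to 62 IP reads a sample. DNAJC12 had 7, 4 and 7 listed bins with 9, 9 and 13 input reads. Only bins that passed the caller were listed, each with at least 4 IP reads, so sparse genes enter only through such bins. The part of this in their ratios was not tested. DNAJC7, a J protein with tetratricopeptide repeats that binds HSP70 and HSP90, was the lowest of the J proteins at -1.48, -1.84 and -1.79 (edgeR log2 -1.70, SE 0.16, adjusted p = 3.39e-05). DNAJA1, the most input-rich J protein mRNA, gave -0.24, -0.52 and -0.29 and was not called (edgeR log2 -0.35, adjusted p = 0.0965), but was lower without SK-Mel-103 (-0.47, adjusted p = 0.0156). By class, DNAJA had 0 higher and 2 lower of 3 tested, DNAJB had 3 higher and 2 lower of 8, and DNAJC had 5 higher and 10 lower of 21. The counts at an unadjusted p under 0.05 were 49 of the 61 chaperone genes and 6400 of the 9841 genes.

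Of the 20 untested genes, 12 had no listed bin in any sample, namely DNAJA4, DNAJB8, DNAJB13, DNAJC5B, DNAJC5G, DNAJC28, HSPA6, HSPA12B, HSPB3, HSPB6, HSPB7 and HSPB9. Among the other 8 the highest value was the 71 IP reads of DNAJC27 in UACC-62 replicate 3. An unlisted gene can still be transcribed, since bins that did not pass are not in the lists.

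The order of the chaperones along IP over input went with their abundance in the input. Input CPM per kb of exon, averaged over the 3 inputs, was 1513 for HSPA8, 853 for HSP90AA1, 554 for HSP90AB1 and 505 for HSPD1, and between 211 and 351 for the TRiC subunits. Across the 61 chaperone genes, the Spearman correlation between this level and the edgeR log2 was -0.72, and across 9829 genes it was -0.58. Both are descriptions across genes, which share libraries, and the input is also the denominator of the ratio. In the decile of tested genes richest in input there were 19 chaperone genes, of which 0 were higher and 17 were lower (89.5%), beside 12.2% and 71.2% of the 984 genes in that decile. Their median edgeR log2 was -1.63, against -1.21 for all genes of the decile. Outside it, 12 of 42 chaperone genes were higher (28.6%) and 16 lower (38.1%), beside 32.8% and 25.4% of the 8857 other genes. Only bins that passed the caller are counted, which can raise the ratio of genes with few reads. Without the filter on low counts the median edgeR log2 of all genes was 0.30, against 0.06 with it. The parts of input level and of the listing in the values were not tested.

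**Figure D2:**
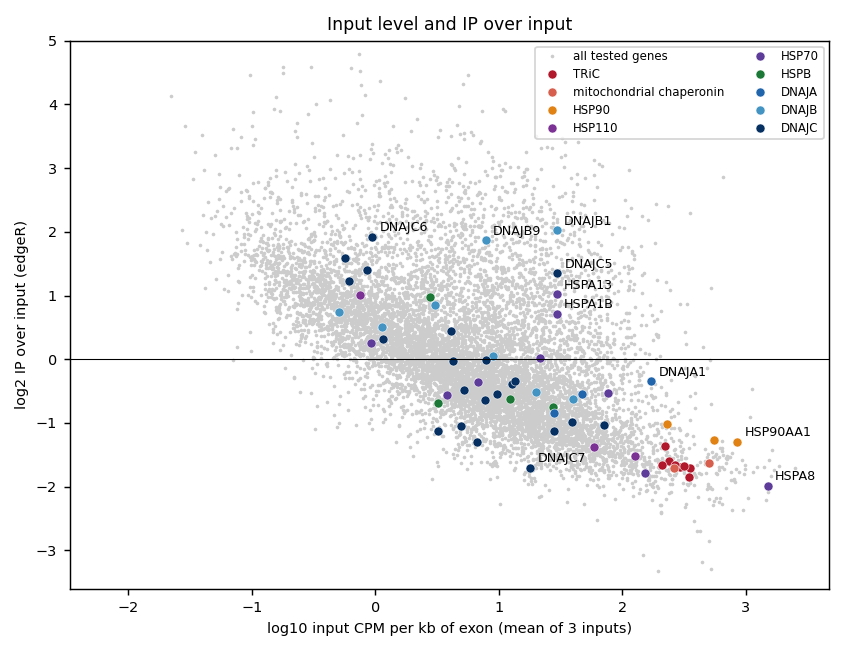
Each point is a gene, with the log10 of its input CPM per kb of exon on the x axis (mean of 3 inputs) and the edgeR log2 IP over input on the y axis; gray points are all tested genes and colored points the chaperone genes by role. The TRiC, HSP90 and mitochondrial chaperonin genes lie at the lower right, with HSPA8 at the far right, whereas DNAJB1, DNAJC5, HSPA13 and HSPA1B lie above 0 at a middle input level.

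A common peak was found in 26 of the 81 chaperone genes (32.1%), beside 8.77% of all protein-coding genes. In the decile richest in input these were 18 of 19 chaperone genes (94.7%), beside 74.4% of the 984 genes, and outside it 8 of 42 (19%), beside 976 of the other 8857 tested genes (11%). All 8 TRiC subunits, both mitochondrial chaperonins and all 3 HSP90 genes had such a peak, as did 6 of 12 HSP70 genes (HSPA1A, HSPA1B, HSPA5, HSPA8, HSPA9 and HSPA13), HSPA4 and HSPH1. Of the J proteins DNAJA1, DNAJA2, DNAJB1, DNAJB11 and DNAJC5 had one, whereas DNAJB9, despite its high ratio, did not. A peak in this sense and a high IP over input were different things. Of the 26 genes, 4 were higher in the IP, 19 were lower and 3 were not called (DNAJA1, HSPA1A and HSPA5), while of the 1708 genes with a common peak 768 were higher and 617 were lower. The filter of more than 30 IP reads set the count, as 58 chaperone genes (71.6%, beside 40.0% of all genes) shared a listed bin without it and 10 (12.3%, beside 2.69%) did so at more than 100 IP reads.

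The common bins of the chaperone genes numbered 518, of which 202 lay in 3′ UTRs (39.0%, Wilson 95% interval 34.9% to 43.3%, which covers counting error only and treats bins as independent), 316 in coding regions and 0 in 5′ UTRs. Over all 28592 common bins in exons, 86.2% were in 3′ UTRs, but the calls of the genes behind the bins differed. Of the chaperone bins 421 came from lower and 66 from higher genes, against 4834 and 19686 over all genes. Within lower genes 118 of 421 chaperone bins lay in 3′ UTRs, beside 2496 of 4834 over all genes. Within higher genes these were 64 of 66, beside 18559 of 19686. HSPA8 alone had 82 common bins, 75 of them coding, and HSP90AA1 had 82, of which 55 were coding. HSP90AB1 followed with 49 bins (40 coding) and HSPD1 with 48 (30 coding). Among genes with common bins, all 4 that were higher in the IP had more of them in the 3′ UTR than in the coding region, as did 6 of the 19 lower ones, among them DNAJA2 (6 of 6), CCT6A (9 of 15) and HSPE1 (4 of 5). The other 8 higher genes had no common bin. DNAJB1 had 43 of its 45 bins in the 3′ UTR, and all 9 bins of DNAJC5, all 9 of HSPA13 and all 3 of HSPA1B were there.

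Within the same gene, IP over input of the 3′ UTR could be set against that of the coding region in 41 chaperone genes with at least 20 IP reads in both regions of every sample. The 3′ UTR was above the coding region in all 3 samples in 28 of 41 genes (68.3%), beside 56.3% of 4774 genes, and it was below in all 3 samples in 0 of 41, beside 613 of 4774. DNAJB1 showed the pattern in a gene that was higher overall. Its 3′ UTR gave a log2 IP over input of 1.77, 2.65 and 2.44, and its coding region gave -0.08, 0.53 and 1.04. The cytosolic HSP90 genes, lower as whole genes, showed it too. The coding region of HSP90AA1 gave -1.49, -1.91 and -1.88, but its 3′ UTR gave 0.67, -0.31 and -0.53. For HSP90AB1 these were -1.24, -2.07 and -1.37 in the coding region and 0.25, 0.03 and 0.09 in the 3′ UTR, so that the groups of values did not overlap in either gene. HSPA4, with -1.31, -2.12 and -1.96 in the coding region and -0.20, -0.07 and 0.04 in the 3′ UTR, and DNAJA1, with -1.06, -1.57 and -1.36 against 0.47, 0.25 and 0.51, had the same layout.

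TRiC differed from these genes by the size of the step. CCT2 gave -1.28, -2.16 and -1.84 in the coding region and -0.86, -2.02 and -1.74 in the 3′ UTR. For TCP1 the difference between the regions was 0.03, -0.28 and -0.14 on the log2 scale, so its direction was not the same in the 3 samples. HSPA8, with -1.58, -2.25 and -2.12 in the coding region and -1.33, -2.34 and -2.22 in the 3′ UTR, had no step shared by the 3 samples either. Its listed 3′ UTR bins, however, were not the same in the 3 samples. In CCT8 the step was positive in every sample, at 0.70, 0.57 and 0.45.

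**Figure D3:**
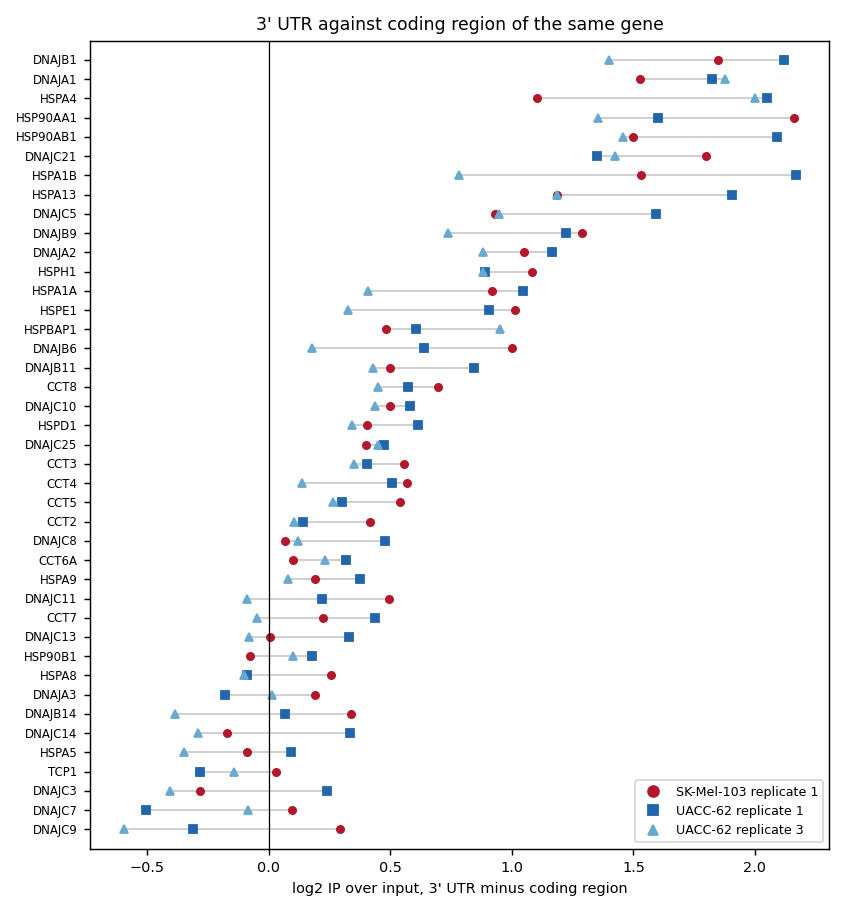
For each of 41 chaperone genes the points give the log2 IP over input of the 3′ UTR minus that of the coding region in each sample, with a line from the lowest to the highest of the 3 samples. DNAJB1, DNAJA1, HSPA4, HSP90AA1 and HSP90AB1 lie above 1 in every sample, most TRiC genes lie between 0 and 0.7, and no gene lies below 0 in all 3 samples.

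The distribution along the 3′ UTR was uneven in DNAJB1 (chr19:14625581-14671203, minus strand). Its annotated 3′ UTR merges all transcripts to 1670 nt, and its common bins lay between positions 460 and 1660. In listed bins up to the midpoint the log2 IP over input was 0.66, 1.45 and 1.42, and beyond the midpoint it was 2.09, 2.99 and 2.77, higher in all 3 samples. Beyond the midpoint there were 4647, 7400 and 6716 IP reads against 920, 1214 and 758 input reads. HSPA8 (chr11:122928197-122933938, minus strand), taken as the contrast, has an annotated 3′ UTR of 248 nt. The value beyond its midpoint was -0.90, -2.34 and -2.26, against -1.46, -2.34 and -2.16 before it. Beyond the midpoint 4 bins were listed in SK-Mel-103 but 6 in each UACC-62 sample, so these values do not cover the same stretch. The bins at positions 154 and 234, unlisted in SK-Mel-103, held 2605 and 5499 input reads in UACC-62 replicate 1 and 1375 and 3581 in replicate 3. Whether the 3 samples share a step cannot be read from these values.

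**Figure D4:**
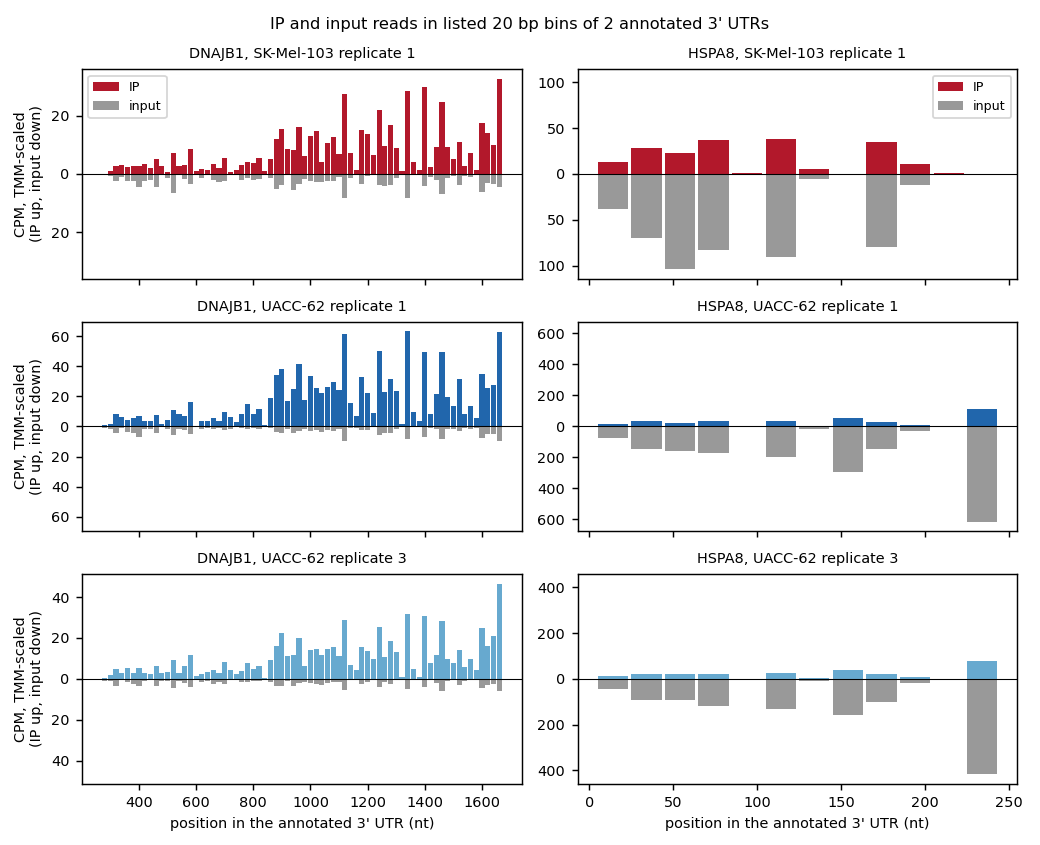
Reads in listed 20 bp bins (y axis, CPM of the TMM-scaled reads in exons of each library) along the annotated 3′ UTR (x axis, nt from its first base) of DNAJB1 (left) and HSPA8 (right), with IP drawn upward in color and input downward in gray, and a row for each sample. In DNAJB1 the IP exceeds the input most in the distal bins of all 3 samples, and in HSPA8 the input exceeds the IP in nearly every bin; the y axes differ between panels.

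GU-rich elements were searched in the annotated 3′ UTRs as 11-letter stretches within 2 mismatches of a UGUU repeat or a UG repeat on the transcript strand. They were present in 48 of 81 chaperone genes (59.3%), beside 55.6% of 19437 genes. With an allowance of 1 mismatch these were 17 genes (21.0% beside 21.5%), and without mismatch 5 genes (6.17% beside 7.73%). Of the 12 genes higher in the IP, 10 had an element (83.3%, beside 88.2% of all higher genes), and of the 33 lower genes 17 had one (51.5%, beside 51.6%). Among the higher genes HSPA4L had 14, HSPA13 had 13, DNAJC5 had 10 and DNAJB9 had 8 such stretches, but DNAJB1, with the highest value, had 0. By count, lower genes held as many, with 16 in DNAJC10 (in an annotated 3′ UTR of 17988 nt), 10 in HSPA4 and 8 in DNAJC2. The 5 genes with an exact match were HSPA4, DNAJC19 and DNAJC2, all lower, and DNAJC6 and DNAJB9, both higher. TRiC had elements in 2 of 8 genes, CCT5 and CCT8. The median 3′ UTR was 491 nt for TRiC, 1956 nt for the higher chaperone genes and 1140 nt for the lower ones, and the Spearman correlation between 3′ UTR length and edgeR log2 was 0.42 across the 61 genes and 0.40 across 9829 genes. A longer 3′ UTR offers more places for a match, and its part in these counts was not tested. Counted per kb of 3′ UTR, elements correlated with the edgeR log2 at 0.36 across the 61 genes and 0.34 across 9829 genes (Spearman).

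The cell lines were compared by the interaction of IP and line in edgeR, in which the single SK-Mel-103 pair is assumed to vary like the UACC-62 pairs. Of the 61 chaperone genes 2 were higher in SK-Mel-103 (3.28%, beside 2.92% of all genes) and 0 were lower (beside 5.48%). At an unadjusted p under 0.05 in either direction there were 10 of the 61, beside 2211 of the 9841 genes. DNAJC15, a J protein of the inner mitochondrial membrane, held 325 IP reads against 349 input reads in SK-Mel-103, 21 against 125 in UACC-62 replicate 1 and 87 against 165 in UACC-62 replicate 3. Its log2 IP over input was -0.35, -2.13 and -1.29, a line difference of 1.26 (SE 0.31, edgeR adjusted p = 0.00223). HSPA4 gave the values above, a line difference of 0.92 (SE 0.32, edgeR adjusted p = 0.0477). In both genes the whole-gene SK-Mel-103 value lay above both UACC-62 values. The UACC-62 replicates of DNAJC15, however, differed by 0.85 between themselves on 21 and 87 IP reads. In HSPA4 the coding region had this order (-1.31 against -2.12 and -1.96), but the 3′ UTR had the opposite one (-0.20 against -0.07 and 0.04). That 3′ UTR held 1225 of 4443 listed input reads in SK-Mel-103, against 417 of 7148 and 223 of 5194 in UACC-62. DESeq2 called 0 chaperone genes in this comparison, beside 18 higher and 39 lower of the 9841 genes. It had 7 chaperone genes at an unadjusted p under 0.05, beside 905 of the 9841. Neither DNAJC15 nor HSPA4 was called by it (adjusted p = 0.268 and 0.148), or by edgeR over bins listed in all 3 samples (0.301 and 0.145). HSPA4 was lost without the filter on low counts (edgeR adjusted p = 0.0874). The balance over all genes turned with the scaling, from 287 higher and 539 lower with TMM to 312 higher and 69 lower with library totals, where both genes kept their call.

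Most chaperone genes that were called in the IP had their smallest departure from 0 in SK-Mel-103. This was so in 37 of 45 called chaperone genes (82.2%), in 10 of the 12 higher and 27 of the 33 lower, beside 65.5% of 5725 called genes listed in all samples. In the input, HSPA2 and HSPA12A had no listed bin in SK-Mel-103 against 232 and 355, and 117 and 114, input reads in UACC-62. HSPB8 had 19 input reads in SK-Mel-103 against 391 and 491, and DNAJC9, a histone chaperone of the J family, had 1697 against 310 and 341. In bulk RNA, fewer expressing cells and less RNA per cell cannot be told apart. Nor can unequal listing be set apart, as input was counted only in bins listed for that sample. HSPB8 had 5 listed bins in SK-Mel-103 against 26 and 39 in UACC-62, and DNAJC9 had 63 against 18 and 33. These input values are given without a test, as SK-Mel-103 had 1 input.

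The wider chaperone network was read from 42 regulators and co-chaperones outside the symbol rule, all of which were tested. Of these 4 were higher in the IP (9.52%, beside 30.8% of all genes) and 25 were lower (59.5%, beside 30%), with a median edgeR log2 of -0.58, and 13 were not called. The higher genes were SUGT1, an HSP90 co-chaperone of kinetochore assembly, at 2.60, CHORDC1, another HSP90 partner, at 1.33, and the HSP70 nucleotide exchange factors BAG4 at 1.24 and BAG5 at 1.11. SUGT1 was above DNAJB1. The lower genes held the prefoldin subunits that hand clients to TRiC (PFDN5 at -1.69, VBP1 at -1.53, PFDN1 at -1.26) and the HSP90 co-chaperones STIP1 (-1.53), AHSA1 (-1.47) and CDC37 (-1.46). HSF1, the transcription factor of the heat shock response, was at -0.55 (edgeR adjusted p = 0.0425), and HSF2 was at 0.13 and was not called. A common peak was found in 11 of the 42 genes (26.2%, beside 8.77%).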

How the data were processed

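RIP-Seq lists of 3 IP samples were used; the 3 inputs were read from a column of those lists. Per the labels and methods, the authors aligned reads to GRCh37 with TopHat (version 2.0.4 in the submitters' processing notes), keeping reads with up to 20 hits, and called bins with Piranha. The authors deposited whole IP read counts per bin, p-values as called, and a ratio proportional to input reads per bin (0.01 where there were none). From it whole input reads were recovered, within 0.02 read for at least 99.99965% of bins.

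Exons came from GENCODE version 44 on GRCh37 (bin centre; 3′ UTR, with the stop codon, before coding region), on the reverse of the listed strand. The main test was edgeR 4.0.16 (R 4.3.3) with TMM and the pair as a block, since each IP has its own input. Deviations of IP and own input correlated at 0.95, 0.92 and 0.91 across 9841 genes. Both were counted in the bins listed for that sample, so the shared listing alone can raise this correlation, which is no support for the block. DESeq2 1.42.0 and limma 3.58.1 were alternatives. Per-sample log2 values used a pseudocount of 1 read. On simulated counts of 9841 genes edgeR recovered 89% of 2-fold and 98.5% of 4-fold IP changes, and 4.5% and 82% of line differences of these sizes. These counts had a shared mean profile, a fixed dispersion, 200 changed genes and no differences between pairs. The rates therefore check the code and do not give the power in these data.

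The chaperone genes and lists were chosen with earlier results of these data known. Genes were named by rule: a common peak, the 5 highest and 5 lowest with at least 100 IP reads in every sample, 23 core genes, and genes called between lines; all others were named after their values were seen. Figures were drawn with matplotlib 3.10.9.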

Additional observations from a re-analysis of the deposited data

Results flagged for a closer look

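Differences between SK-Mel-103 and UACC-62 past the threshold of the interaction test drew attention to 2 chaperone genes. For DNAJC15 the line difference of log2 IP over input was 1.26, on 21 and 87 IP reads in the UACC-62 replicates. For HSPA4 it was 0.92, on at least 1499 IP reads a sample. The 3′ UTR of HSPA4 taken alone went the other way, at -0.20 in SK-Mel-103 against -0.07 and 0.04 in UACC-62.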

How the results depend on the processing

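Leaving out a pair gave 10 to 15 higher chaperone genes (16.4% to 24.6%, beside 21.2% to 34.5% of all genes). It gave 26 to 39 lower ones (42.6% to 63.9%, beside 21.6% to 36.0%). There were 26 to 28 with a common peak, beside 9.20% to 11.3% of all genes. Of their common bins 35.1% to 41.5% lay in 3′ UTRs, beside 84.1% to 86.3% over all genes. Line differences were 0.94 to 1.79 for DNAJC15 and 0.87 to 0.96 for HSPA4, with no test. With no replicate block, that is, without pairing each IP with its input, 1 higher and 14 lower chaperone genes were called, DNAJB1 alone among the higher and all of them also called with the block (all genes, 311 higher and 267 lower). Bins with more than 30 IP reads gave 5 higher (17.2%) and 21 lower (72.4%) of 29 tested, beside 37.5% and 38.0% of 2798 genes. The strand as listed leaves 4 chaperone genes and gave 0 higher and 2 lower, beside 14.9% and 19.7% of 1225 genes, with 0 common peaks in chaperone genes. DESeq2, limma, library totals, bins of a single gene (chosen after seeing the data), bins listed in all 3 samples and no filter on low counts gave 10 to 13 higher and 27 to 38 lower. These were 18.8% to 19.7% and 50.8% to 62.3% of the chaperone genes tested, beside 24.0% to 32.7% and 24.5% to 34.3% of all genes. No chaperone gene was called in the opposite direction under any of these settings. Between lines, 2 higher became 0 with DESeq2, 1 without the filter on low counts and 0 over bins listed in all 3 samples. Common peaks were in 58 genes with no filter on IP reads and in 10 at more than 100, where 49.0% of bins lay in 3′ UTRs. The median of the per-sample means was -0.55, and -0.71 over bins listed in all 3 samples, -0.86 over bins with more than 30 IP reads and -0.88 with list totals, a scaling chosen after seeing the data. In edgeR the chaperone median of -0.56 lay 0.63 below that of all genes. It became -1.66, or 1.63 below, over bins with more than 30 IP reads, 0.91 below without the filter on low counts, 0.43 below over bins listed in all 3 samples, and 0.69 below with library totals, which moved the median of all genes from 0.06 to -0.08. GU-rich elements fell to 17 genes at 1 mismatch and 5 at none. The sign turned under at least 1 alternative for 8 of the tested chaperone genes, none of which was called with the main setting, among them DNAJA1 (0.017 over bins listed in all 3 samples) and HSPA1A (-0.12 with library totals, -0.056 with no replicate block, and -0.20 to 0.16 leaving out a pair, below 0 without UACC-62 replicate 3). The causes were not tested. Only passing bins are listed, SK-Mel-103 had no replicate, and no pulldown with a control antibody was analysed here, which limits every value of IP over input.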
